A study of Mus musculus with 2 samples.

Results

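The miR-23/27/24 family of the mouse is encoded by 6 hairpins in 2 genomic clusters, Mir23a, Mir27a and Mir24-2 on chromosome 8 and Mir23b, Mir27b and Mir24-1 on chromosome 13. A hairpin is the stem-loop RNA that is processed into the short mature strands, its 5p and 3p arms. The 6 hairpins were taken by their GENCODE M21 symbols and matched by Ensembl gene identifier among the 2202 hairpins measured, so the rule itself uses no measured value. MicroRNA-seq, which counts short RNA fragments, was run on 2 heart samples, both from females of B6CASTF1/J at an age of 25 days. This stock is the F1 hybrid between C57BL/6J and CAST/EiJ mice, and the labels name no treatment. Replicate numbers 1 and 2 are those of the labels, which also number the females separately. Both samples carry the same donor identifier, so that SDs measure the spread between these 2 samples, which may in part be technical. One free-text label gives the age in another unit. Both libraries form 1 group, and no control group was analysed here.

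In each cluster a miR-23, a miR-27 and a miR-24 hairpin follow each other on the same strand, and such neighbours are known to be cut from a shared primary transcript. The family is known in the heart and its vessels. In the endothelium it is linked to vessel growth. In heart muscle miR-23a is linked to hypertrophic growth, miR-27b to peroxisome proliferator signalling and miR-24 to cell survival. A microRNA finds its messenger RNA targets mainly through its seed, bases 2 to 8, so arms with the same seed are expected to share most targets.

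Sequences are shown first, because how far paralogs (copies of a gene within a genome) differ in sequence sets which reads can be told apart. They are from RefSeq on GRCm38.p6, where 6 of 6 hairpins matched with the coordinates of GENCODE. For Mir23b the source held no 3p arm, so bases of its hairpin are compared instead below. The sequence of miR-24-3p is the same at both loci. The other mature 3p arms, written 5′ to 3′ with the seed in capitals, were as follows, together with miR-24-3p.
miR-23a-3p: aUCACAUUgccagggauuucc
miR-27a-3p: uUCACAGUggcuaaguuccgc
miR-27b-3p: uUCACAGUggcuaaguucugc
miR-24-3p: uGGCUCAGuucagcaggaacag

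The 5p arms of the miR-24 hairpins are shown because, unlike miR-24-3p, they differ between the loci; capitals again mark the seed.
miR-24-2-5p: gUGCCUACugagcugaaacagu
miR-24-1-5p: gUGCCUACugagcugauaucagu

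The hairpins of miR-23 and miR-24 show where their copies can be distinguished. Capitals mark miR-23a-3p in Mir23a, the longest stretch that Mir23b shares with miR-23a-3p, and miR-24-3p in both miR-24 hairpins.
Mir23a: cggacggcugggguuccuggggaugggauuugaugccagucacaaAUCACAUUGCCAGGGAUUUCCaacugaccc
Mir23b: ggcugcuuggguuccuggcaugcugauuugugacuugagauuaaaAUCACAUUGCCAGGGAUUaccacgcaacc
Mir24-2: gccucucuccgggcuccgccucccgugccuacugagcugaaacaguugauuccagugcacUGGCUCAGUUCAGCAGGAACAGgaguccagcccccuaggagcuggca
Mir24-1: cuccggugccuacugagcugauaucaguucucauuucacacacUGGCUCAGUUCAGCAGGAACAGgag

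The copies of miR-23 and of miR-27 each differ by a single base near the 3′ end, and those of miR-24-3p by none. Counted from 1 at the 5′ end of the chromosome 8 arm, the Mir23b hairpin carries the substitution U19A against miR-23a-3p, and miR-27b-3p carries C19U against miR-27a-3p. The other 20 of 21 bases were identical in both pairs, seed included. Over whole hairpins, the longest shared stretch was 20 bases for Mir23a and Mir23b, 20 for Mir27a and Mir27b, and 28 for Mir24-2 and Mir24-1. The 28 bases contain all 22 of miR-24-3p. The 5p arms of miR-24, which are cut from the other side of the hairpin, share their first 16 bases and then diverge (22 bases for Mir24-2, 23 for Mir24-1). Against 1003 other hairpins in the RefSeq table, no member shared more than 13 bases in a row. A miR-24-3p read therefore matches both loci equally, and the tables keep reads matching several places in a separate row that enters no hairpin count. Reads in that row numbered 1925044 in replicate 1 and 2686901 in replicate 2, and their origin is not recorded. Values for Mir24-1 and Mir24-2 hold for the counted reads and do not measure miR-24-3p. A read of the 3p arm of miR-23 or miR-27 that ends before base 19 likewise matches both loci of its pair. Values for those hairpins also hold for the counted reads only, and how many such reads are left out was not tested.

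Few other microRNAs carry these seeds. Among 1738 mature entries, the seed of miR-23a-3p was found at bases 2 to 8 of no arm outside the family. The seed of miR-24-3p was also found in miR-6413, miR-6410, miR-6369 and miR-5124b, and their hairpins had 0 counts in both libraries. The seed of miR-27 recurs, shifted by 1 base, at the 5′ end of miR-128-3p, a microRNA best known from neurons and shown here with the shared letters in capitals.
miR-128-3p: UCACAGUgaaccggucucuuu
Mir128-1 had 360 and 487 counts and Mir128-2 had 22 and 20 in replicates 1 and 2. Both loci encode the same miR-128-3p, so these counts do not measure it.

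Both clusters are compact, but their surroundings differ. Coordinates are those of mm10. The chromosome 8 cluster spans 404 bases on the plus strand, with Mir23a from 84208518 to 84208592, Mir27a from 84208672 to 84208758 and Mir24-2 from 84208815 to 84208921. It lies outside annotated protein-coding genes, and the last 2 bases of Mir24-2 overlap the first exon of the long noncoding RNA gene Gm26532. The chromosome 13 cluster spans 792 bases on the plus strand, with Mir23b from 63300484 to 63300557, Mir27b from 63300712 to 63300784 and Mir24-1 from 63301208 to 63301275. It lies within 2010111I01Rik, a protein-coding gene on the same strand, in introns of most overlapping transcripts. An exon covers Mir27b in 1 transcript and Mir24-1 in 4. On the other strand, all 3 hairpins of this cluster lie in an intron of the Fanconi anaemia gene Fancc.

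Each miR-24 hairpin also has a hairpin annotated on the opposite strand. Mir3074-2 lies within Mir24-2, with an overlap of 83 bases, and Mir3074-1 covers all 68 bases of Mir24-1. No other annotated hairpin lay within 1 kb of a member on either strand.

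**Figure D1:**
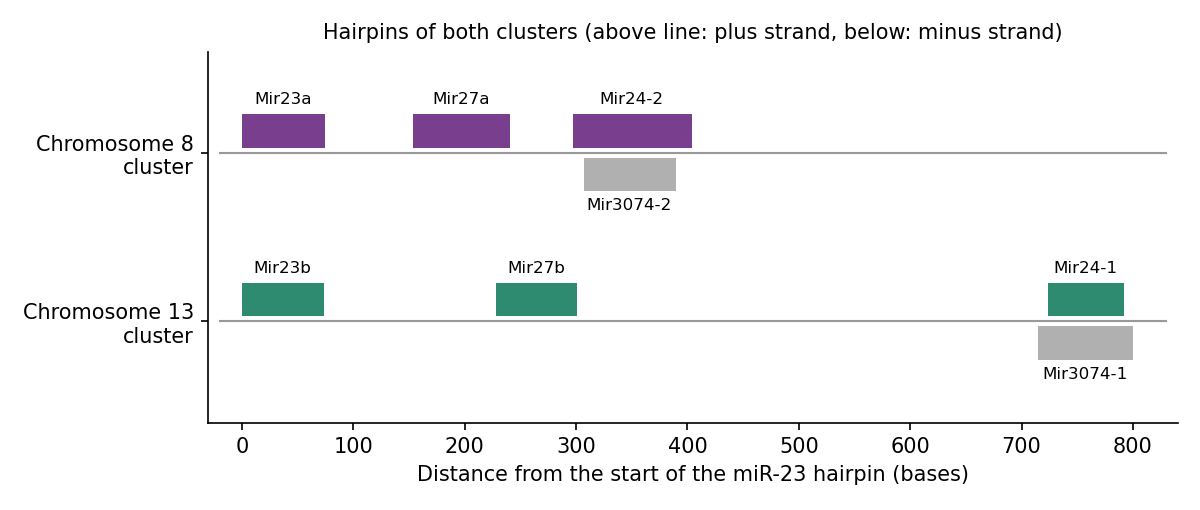
Position of each hairpin in bases from the start of the miR-23 hairpin of its cluster; boxes above the line lie on the plus strand and grey boxes below it on the minus strand. The chromosome 8 cluster ends after 404 bases and that of chromosome 13 after 792, and only the miR-24 hairpins have a partner on the other strand.

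Replicate 1 held 5005996 reads and replicate 2 held 6452546, of which 2050498 and 2661090 were counted on hairpins. CPM is the count of a hairpin divided by this sum and multiplied by 1000000, and errors are SD with n = 2. At 10 counts or more in each library there were 288 of 2202 hairpins, the 6 members included. Defining microRNAs of the labelled tissue were present: Mir208a and Mir499, from myosin genes of heart muscle, had 1620 and 5862 CPM, and 2629 and 2317 CPM, in replicates 1 and 2. Mir208b, also from a myosin gene, had 191 and 112 CPM. The remaining hairpins of the heart muscle list had few counts: Mir1a-2 had 94 and 31, and Mir1a-1, Mir133a-1 and Mir133a-2 had 8 or fewer in each library. Like miR-24, these microRNAs are encoded by more than 1 locus with the same mature 3p arm, so their counts do not measure them. A count of reads over RNA of heart tissue cannot tell fewer cells of a type from less RNA per cell. Ranges for shares are exact (Clopper-Pearson) 95% intervals, and they cover counting error only, because copies made by PCR were not told apart.

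The miR-23 hairpins were among those with the most counts in both libraries, a rank that leaves out reads matching several places. Mir23b had 128037 counts in replicate 1 and 187912 in replicate 2, or 62442 and 70615 CPM, and ranked 4 of 2202 in each. Mir23a had 95182 and 190871 counts, or 46419 and 71727 CPM, with ranks of 7 and 3. Their means were 66528 ± 5779 CPM for Mir23b and 59073 ± 17895 CPM for Mir23a. Mir23b was the higher of the pair in replicate 1 and Mir23a, by a small margin, in replicate 2. The gap between the means, 7455 CPM, was smaller than the SD of Mir23a, so the order of these neighbours is not set.

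The miR-27 hairpins had lower levels, with the chromosome 13 copy ahead in both libraries. Mir27b had 13137 and 12863 counts, or 6407 and 4834 CPM, and a mean of 5620 ± 1112 CPM. Mir27a had 2967 and 2889 counts, or 1447 and 1086 CPM, and a mean of 1266 ± 255 CPM. The values of the pair did not overlap between loci, and the gap of 4354 CPM exceeded both SDs.

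The miR-24 hairpins were the lowest of the 6 in counted reads, which leave out those matching both miR-24 loci. Mir24-1 had 298 and 468 counts, or 145 and 176 CPM, and a mean of 161 ± 21.6 CPM. Mir24-2 had 357 and 221 counts, or 174 and 83.0 CPM, and a mean of 129 ± 64.4 CPM. The copy with more counts changed from Mir24-2 in replicate 1 to Mir24-1 in replicate 2, and the gap of 32.0 CPM was smaller than the SD of Mir24-2. In the order of means, the other neighbours were further apart than their SDs: Mir23a over Mir27b by 10.5-fold, Mir27b over Mir27a by 4.44-fold and Mir27a over Mir24-1 by 7.88-fold. A short-RNA read was taken to cover a mature microRNA, so counts were not divided by hairpin length, which ran from 68 to 107 bases. The counts do not give read lengths.

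**Figure D2:**
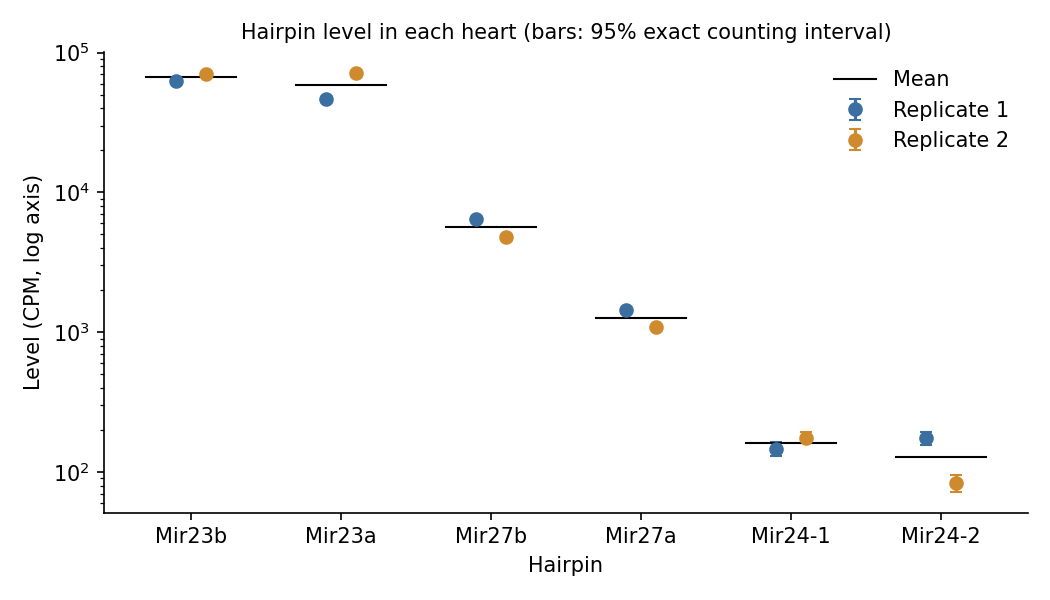
Level of each hairpin in CPM on a log axis, in replicate 1 (blue) and replicate 2 (orange), with the mean as a line and the 95% exact counting interval as bars, mostly hidden by the points. Levels fall from 66528 CPM for Mir23b to 129 CPM for Mir24-2, where reads matching both miR-24 loci are not counted. The loci of miR-23 and of miR-24 change order between the libraries.

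On the strand opposite to the members, counted reads were few. The opposite-strand column held 0 reads at Mir23a, Mir27a, Mir24-2, Mir23b and Mir27b in both libraries, and 31 and 31 at Mir24-1. The latter are the counts of Mir3074-1 on its own strand, equal to 15.1 and 11.6 CPM. Mir3074-2 had 0 and 0 counts. Both Mir3074 hairpins carry the same miR-3074-5p, so a read of that arm matches both loci and these counts do not measure it. Where strand was ignored, both miR-24 hairpins and both Mir3074 hairpins stood at 0, while the counts of the 4 miR-23 and miR-27 hairpins were the same as on their own strand.

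Most of the family's counted reads came from miR-23. Reads matching both loci of a pair are left out, so the shares below do not give the make-up of the family's RNA. Together the 6 hairpins held 239978 counts in replicate 1 (11.7%) and 395224 in replicate 2 (14.9%). The miR-23 pair supplied 93.0% of them in replicate 1 and 95.8% in replicate 2. The miR-27 pair supplied 6.71% and 3.99%, and the miR-24 pair 0.273% and 0.174%. By cluster, chromosome 13 held 6.90% and 7.56% of all hairpin counts and chromosome 8 held 4.80% and 7.29%. The chromosome 8 cluster thus made up 41.0% of the family in replicate 1 (40.9 to 41.2) and 49.1% in replicate 2 (48.9 to 49.2). Without miR-23 its share was 19.8% and 18.9%, with intervals of 19.2 to 20.4 and 18.3 to 19.5.

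Shares within a pair need no scaling between libraries, and the 3 pairs behaved differently. They cover only reads placed at a single locus, so 3p reads of miR-23 and miR-27 that end before base 19 are left out. Mir27a made up 18.4% of the miR-27 pair in replicate 1 (17.8 to 19.0) and 18.3% in replicate 2 (17.7 to 19.0), with overlapping intervals. The ratio of Mir27a to Mir27b changed by -0.01 on the log2 scale between the libraries, with an exact conditional 95% interval of -0.09 to 0.07. Mir23a made up 42.6% of the miR-23 pair in replicate 1 (42.4 to 42.8) and 50.4% in replicate 2 (50.2 to 50.5). Its ratio to Mir23b was higher in replicate 2 by 0.45 on the log2 scale (interval 0.44 to 0.47). Mir24-2 made up 54.5% of the miR-24 pair in replicate 1 (50.6 to 58.4) and 32.1% in replicate 2 (28.6 to 35.7). Its ratio to Mir24-1 was lower in replicate 2, with a log2 change of -1.34 (interval -1.67 to -1.01). Among the 3 pairs, miR-27 thus had the same split in both libraries within an interval of counting error, and the other pairs did not.

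**Figure D3:**
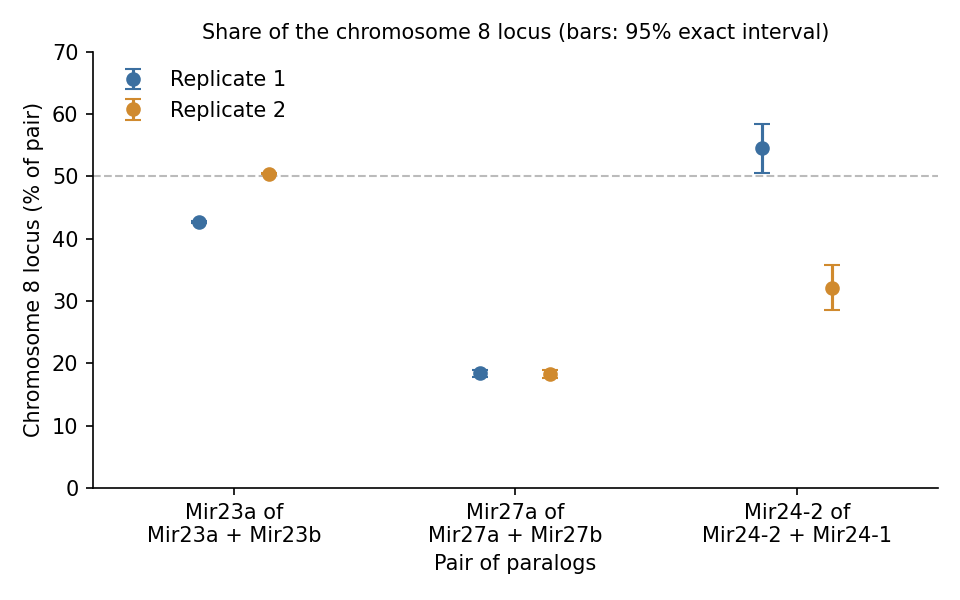
Share of the chromosome 8 locus in the counts of each pair of paralogs, in percent, in replicate 1 (blue) and replicate 2 (orange), with 95% exact intervals; the dashed line marks equal shares. The miR-27 points coincide at 18.4% and 18.3%, that of Mir23a goes from 42.6% to 50.4% and that of Mir24-2 from 54.5% to 32.1%.

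Among paralogs of other duplicated clusters, the change in ratio between the libraries varied. These pairs were chosen after the values of the members were seen. Pairs with a locus number, those of miR-30c, miR-125b and miR-29b, may lack reads that match both loci, which was not tested. Mir99a over Mir100, of the miR-99 family, stood at 5.56 and 5.78 in replicates 1 and 2, with a log2 change of 0.06 (exact conditional interval 0.02 to 0.09). Mir30c-2 over Mir30c-1, of the miR-30 family, stood at 2.68 and 2.36 (change -0.18, interval -0.36 to -0.01). Mir29a over Mir29c, regulators of matrix genes, stood at 21.05 and 19.9, with a log2 change of -0.08 (interval -0.27 to 0.12). Mir99a over Mir99b went from 1.36 to 2.505 (change 0.88, interval 0.86 to 0.90). Mir125b-1 over Mir125b-2 went from 2.29 to 1.14 (change -1.01, interval -1.27 to -0.75). Mir29b-1 over Mir29b-2 stood at 1.42 and 2, with a change of 0.49. Its interval was wide (-0.84 to 1.87), since Mir29b-1 had 47 and 22 counts and Mir29b-2 had 33 and 11. The intervals of Mir29a over Mir29c and Mir29b-1 over Mir29b-2 included 0, as did that of the miR-27 pair. Those of the other pairs did not, although the changes of Mir99a over Mir100 and Mir30c-2 over Mir30c-1 were small.

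Neighbours within a cluster had very different counts, although each cluster is shorter than 1 kb. Mir23a had 32.1 times the counts of Mir27a in replicate 1 (30.9 to 33.3) and 66.1 times in replicate 2 (63.7 to 68.6). Mir23b had 9.75 times the counts of Mir27b in replicate 1 (9.57 to 9.92) and 14.6 times in replicate 2 (14.3 to 14.9). The excess of miR-23 over miR-27 was greater on chromosome 8 than on chromosome 13 in both libraries, and greater in replicate 2 at both clusters. The log2 change was 1.04 for chromosome 8 (exact conditional interval 0.97 to 1.12) and 0.58 for chromosome 13 (0.55 to 0.62).

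The step from miR-27 to miR-24 was also uneven, and here the reads that match both miR-24 loci are missing. Mir27a had 8.31 and 13.1 times the counts of Mir24-2, and Mir27b had 44.1 and 27.5 times those of Mir24-1. Mir23b over Mir24-1 was 430 in replicate 1 and 402 in replicate 2, with a log2 change of -0.10 (interval -0.31 to 0.12). Mir23a over Mir24-2 was 267 and 864.

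Of the 10 genomic clusters compared, from the miR-23/27/24, miR-99, miR-30 and miR-29 families, those of miR-23/27/24 had the widest spread by mean of both libraries. That place rests on the miR-24 loci, whose counts miss miR-24-3p: between miR-23 and miR-27 alone the folds were 32.1 and 66.1 on chromosome 8 and 9.75 and 14.6 on chromosome 13, below those of the Mir29a cluster. Highest over lowest count was 267 and 864 in the chromosome 8 cluster and 430 and 402 in that of chromosome 13. With the miR-24 loci, the Mir29a cluster came next with 234 and 374, from 11008 and 8219 counts of Mir29a over 47 and 22 of Mir29b-1, which is named as the lowest of its cluster after its values were seen. The Mir99a cluster had 63.6 and 286, Mir99a over Mirlet7c-1, a let-7 locus. The Mir30d cluster had 123 and 43.2, Mir30d over Mir30b. The narrowest was the Mir99b cluster with 2.43 and 3.41, where Mir99b, Mirlet7e and Mir125a had similar counts. The Mir29a and chromosome 8 clusters overlapped in replicate values, since 374 lies between 267 and 864, and no test of the order was made. Several of the low hairpins in these families carry a locus number, and the share of their reads in the row of several matches was not tested.

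**Figure D4:**
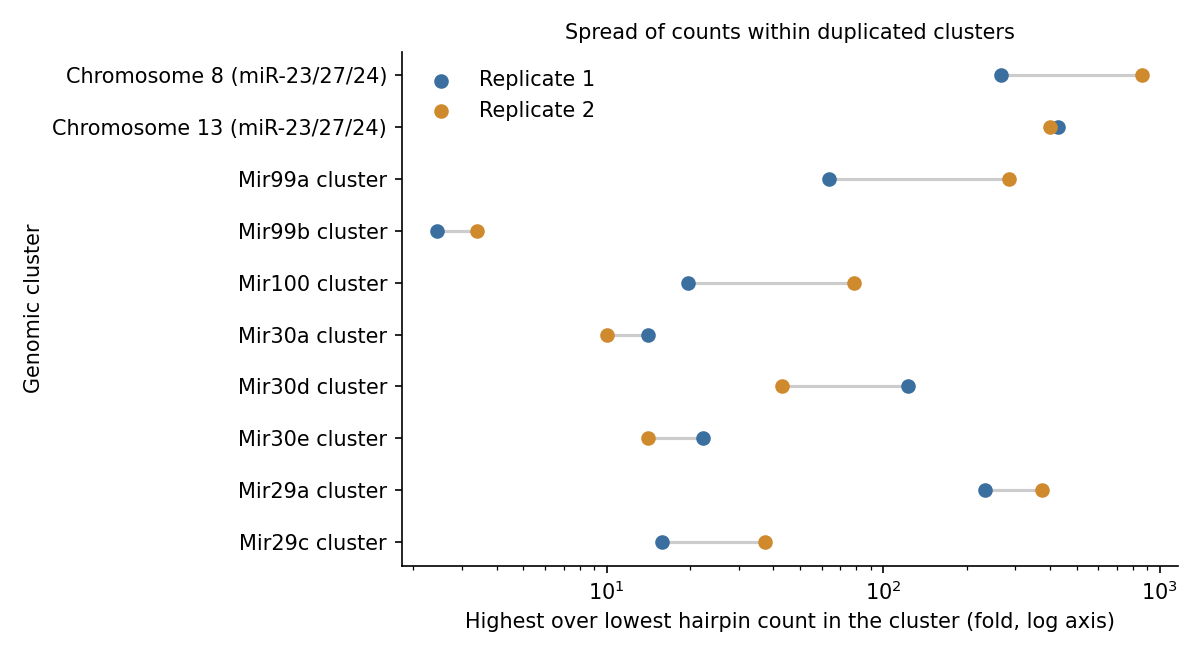
Highest over lowest hairpin count within each genomic cluster (fold, log axis), in replicate 1 (blue) and replicate 2 (orange). The chromosome 8 cluster spans 267 to 864 and the chromosome 13 cluster 402 to 430, while the Mir99b cluster stays at 2.43 and 3.41.

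The libraries were also compared hairpin by hairpin, which asks how far the members differed between samples of 1 strain, sex and age. With 1 library on each side, the test compares these libraries and not conditions. The exact two-sided binomial test with scaling by TMM (trimmed mean of M-values) called 204 of 326 tested hairpins (62.6%). Higher counts in replicate 2 were called for 118 (36.2%) and lower counts for 86 (26.4%). All 6 members were called, 3 higher and 3 lower. Among 90 hairpins with at least 1000 counts in a library, 83 (92.2%) were called, 55.6% higher and 36.7% lower, so that a call on the 4 deep members is the usual outcome at their depth.

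The split into higher and lower depended on the scaling. By total count, 59.2% of hairpins were called, 76 higher (23.3%) and 117 lower (35.9%), and the members were again 3 and 3. Upper-quartile scaling gave 154 higher and 67 lower over all hairpins and 5 and 1 among the members. TMM without the 10 highest hairpins gave 53 and 145 over all hairpins, and 1 and 3 among the members. The median log2 ratio of all tested hairpins was 0.09 with TMM, -0.14 by total count, 0.35 with upper-quartile scaling and -0.32 without the 10 highest. Log2 ratios below compare replicate 2 with replicate 1, computed on TMM-scaled CPM with 1 added, and have exact 95% intervals of the count ratio.

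Mir23a, Mir24-1 and Mir23b were higher in replicate 2. The log2 ratio of Mir23a was 0.86 (0.85 to 0.87) and that of Mir23b 0.41 (0.40 to 0.42), with adjusted exact binomial p-values below the smallest number the computation could hold. That of Mir24-1 was 0.50 (0.29 to 0.72, adjusted exact binomial p = 5.14e-06). With the 10 highest hairpins left out of the scaling, those of Mir23b and Mir24-1 lost their calls, at -0.00 and 0.09 (adjusted exact binomial p = 0.568 and 0.456).

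Mir24-2, Mir27a and Mir27b were lower. The log2 ratio of Mir24-2 was -0.83 (-1.09 to -0.59, adjusted exact binomial p = 2.16e-11). Those of the miR-27 hairpins nearly coincided, -0.18 for Mir27a (-0.26 to -0.11, adjusted exact binomial p = 2.70e-06) and -0.18 for Mir27b (-0.21 to -0.14, adjusted exact binomial p = 3.28e-22). With upper-quartile scaling they turned to 0.08 and 0.09. Relative to the median of all tested hairpins, they were at -0.27 and -0.26, a distance that a change of scaling alone leaves nearly as it is.

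Set beside all hairpins with TMM scaling, the members moved by ordinary amounts. The median absolute log2 ratio over 326 hairpins was 0.56. Mir23a and Mir24-2 exceeded it, and the other 4 members stayed below it. A larger absolute ratio was found for 109 hairpins in the case of Mir23a and for 266 in the case of Mir27b. The biological coefficient of variation, the spread between the samples beyond counting error, was 0.467 over all tested hairpins by edgeR and 0.230 from the median DESeq2 dispersion. With n = 2 no member was tested against that spread.

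**Figure D5:**
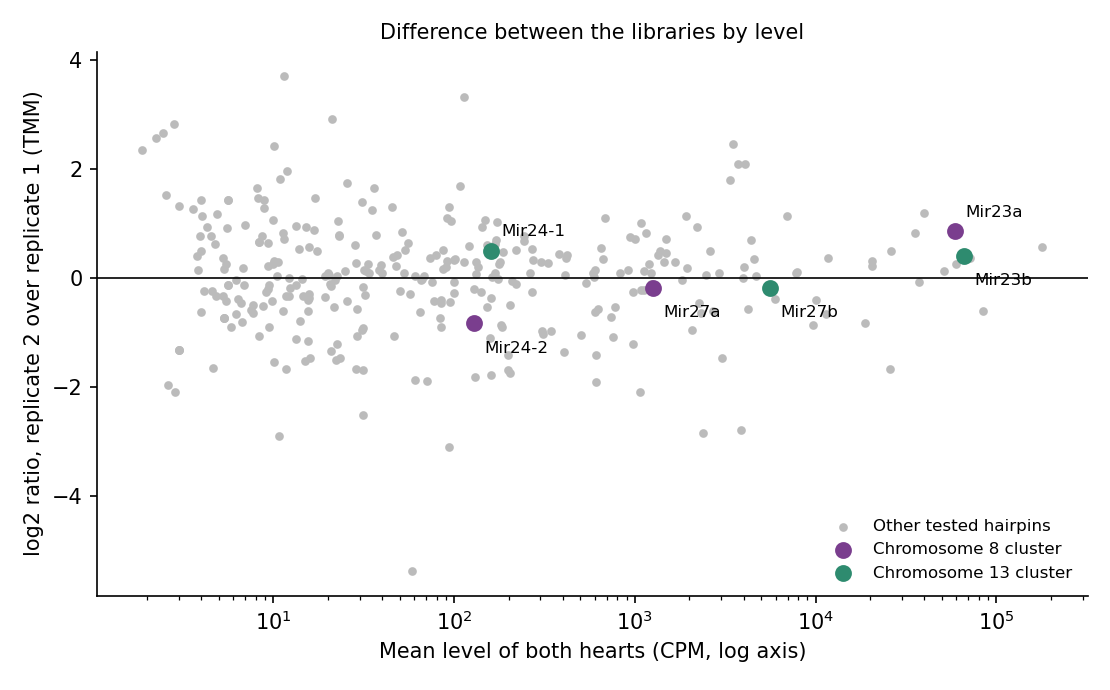
Log2 ratio of replicate 2 over replicate 1 against mean level (CPM, log axis) for the 326 tested hairpins, grey, with the chromosome 8 members in purple and those of chromosome 13 in green. Mir23a lies at 0.86, Mir23b at 0.41, Mir24-1 at 0.50 and Mir24-2 at -0.83, and both miR-27 hairpins at -0.18.

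The nearest hairpins in level and in ratio were named by rule. Next above Mir23b in mean CPM was Mirlet7i (71032 ± 4809) and next below it, apart from members, was Mirlet7g (60059 ± 980), both of the growth-restraining let-7 family. Mirlet7g was also next above Mir23a, and Mirlet7b (51103 ± 2693) next below it. Mir27b lay between Mir30e (5994 ± 1773) and Mirlet7f-2 (4693 ± 431), and Mir27a between Mir98 (1336 ± 127) and Mir146 (1227 ± 205). Mir24-1 lay between Mir181a-2 and Mir3102, at 162 and 160 CPM, and Mir24-2 between Mir16-2 and Mir224, at 130 and 128 CPM. Only for Mir23b below (6470 CPM) was the gap to such a neighbour larger than the SD of the member.

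Likeness in ratio rests on 2 libraries and 182 candidate hairpins. The nearest were Mir222 for Mir23a (0.84), Mir433 for Mir23b (0.42) and Mir676 for Mir24-1 (0.50). Mir224 was the nearest for both miR-27 hairpins (-0.21), and Mir30d for Mir24-2 (-0.83).

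Among 19 microRNAs linked to vessel growth, as the members are, 17 were tested, of which 9 were higher in replicate 2, 4 lower and 4 not called. Over all tested hairpins the shares were 36.2% and 26.4%, and that split moved with the scaling, so the counts of the list are read no further. Its median log2 ratio was 0.26, against 0.09 over all tested hairpins. Mir378a, from an intron of Ppargc1b, had 158989 and 200864 CPM (log2 ratio 0.57). Mir126a, the endothelial microRNA of Egfl7, had 108082 and 60950 CPM (-0.60). Mir100 had 4866 and 9105 CPM (1.13), Mir130a 2361 and 2825 CPM (0.49), and Mir92-1 1985 and 1646 CPM, which did not pass the test (-0.04, adjusted exact binomial p = 0.274). Mir17 had 1190 and 1212 CPM (0.26). Mir126b (1 and 0 counts) and Mir19a (2 and 1), named after their values were seen, were too low to be tested.

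Levels of cell type markers are set beside those of the members. Calls among them carry little weight, since 62.6% of all tested hairpins and 92.2% of the deep ones were called. The endothelial marker Mir126a was lower in replicate 2, while the smooth muscle list, Mir143 and Mir145a, held 2.94% of counts in replicate 1 and 4.83% in replicate 2. Of 4 leukocyte hairpins, 3 were higher and 1 lower, and their summed share was 0.465% in both. The 3 erythroid hairpins were lower, at 0.178% and 0.0869%. Of 7 heart muscle hairpins, 4 were tested, of which Mir208a was higher and Mir208b and Mir1a-2 were lower, and the summed shares were 0.449% and 0.831%. Of 6 hairpins of other tissues, the 3 neuronal Mir124a loci stood at 0, where reads of their shared mature arm would not be counted, the liver microRNA Mir122 had 47 and 540 counts, and the epithelial Mir205 had 238 and 4 and Mir200c 361 and 478. Whether differences in cell makeup have a part in the values of the miR-23/27/24 hairpins was not tested.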

How the data were processed

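The deposited values are raw read counts for each annotated hairpin, which the authors did not normalize; 1 column ignores strand, 1 holds sense reads and 1 antisense reads. Reads were placed on mm10 with GENCODE M21, per the file headers of the deposited text notes. The aligner, the counter and their settings are not given in the sources used here. Sense reads were analysed, since their sum was above that of antisense reads in both libraries. Library sums left out every row without a hairpin name: reads matching several places (38.5% and 41.6% of reads in replicates 1 and 2), unmapped reads (14.1% and 11.5%) and reads in no hairpin (6.48% and 5.64%).

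CPM used the sums of hairpin counts, with a floor of 3 counts. Each hairpin reaching 10 counts in either library was compared by an exact two-sided binomial test against the ratio of effective library sizes (TMM, edgeR 4.0.16 in R 4.3.3), with Benjamini-Hochberg adjustment over all 326 and a threshold of 0.05. The biological coefficient of variation is the square root of edgeR's common dispersion with an intercept-only design. The test was run first on simulated data. Chi-square per degree of freedom between the libraries was 695, so they were not merged.

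The members are fixed by symbol, but this family, and the lists, were chosen with earlier results of these data known. Named hairpins are the members, hairpins within 1 kb of them, the next hairpin above and below each in mean CPM, the nearest log2 ratio among hairpins with at least 100 counts, and the highest of each list. Alternatives were the unstranded column, other totals, scalings (DESeq2 1.42.0 among them), filters and pseudocounts, and each replicate alone.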

Additional observations from a re-analysis of the deposited data

Results flagged for a closer look

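Reads on the strand opposite Mir24-1 numbered 31 in replicate 1 and 31 in replicate 2, above the limit of 3 that applies to a count of 0. They are listed as Mir3074-1 on its own strand, where reads matching both Mir3074 loci are not counted. The tables also set aside 1925044 reads of replicate 1 and 2686901 of replicate 2 because they match several places. Both lie outside the main measurement of the members, and being above that limit does not show that they are unusual. How many of the latter are miR-24-3p was not tested.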

How the results depend on the processing

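The family's share of hairpin counts, 13.3% ± 2.23, was 18.7% in the unstranded column, where the miR-24 hairpins stood at 0 and so the split of their pair could not be computed, and 5.46% of all reads. Under the same settings the chromosome 8 cluster (6.05%) had 8.52% and 2.49%, and that of chromosome 13 (7.23%) had 10.2% and 2.97%. The unstranded shares are of smaller hairpin sums, 1440901 in replicate 1 and 1892750 in replicate 2. That column set aside 609641 and 768383 reads as ambiguous, against 0 and 0 among sense reads. The chromosome 8 share of the family (45.1%) was 19.4% without miR-23. Mir27a held 15.9% of its pair instead of 18.4% with counts per base of hairpin. Hairpins called higher in replicate 2 numbered 118, against 76 by total count and 74 with at least 50 counts, which changed both the hairpins tested and the scaling. Without the 10 highest hairpins in the scaling they numbered 53, and those called lower 145 instead of 86, with 1 member higher. Upper-quartile scaling gave 5 members higher and 1 lower, and log2 ratios of 0.0842 for Mir27a and 0.0923 for Mir27b. Leaving the 10 highest out of the scaling, added with the per-base counts after seeing the data, gave -0.0034 for Mir23b. Mir23a kept its direction and call in 9 of 9 alternatives, and Mir24-2 in 8 of 8. The biological coefficient of variation was 0.230 from the median DESeq2 dispersion. Beyond the change of the sums that shares are taken of, the cause of these differences was not tested. With either replicate left out, only the other's value remains, so the family's share ranged from 11.7% to 14.9%. Depth limits the miR-24 pair most, with 655 and 689 counts. No paired analysis was possible because there is 1 group.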
